A study of Mus musculus with 2 samples.

Results

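The 10 genes described here, Shh, Lmbr1, Epha4, Pax3, Ihh, Wnt6, Sox9, Kcnj2, Pitx1 and Myc, lie at 5 loci whose domain structure is known mainly from chromosomal rearrangements, most of them in limb development. They were taken by name and not by a measured value, though earlier results of these data were known. All 10 were found among the 21755 protein-coding genes on the autosomes and the X chromosome. The question was where the domain boundaries of olfactory sensory neurons fall relative to their start sites.

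The measurement was in situ Hi-C, in which chromatin fixed with 1% formaldehyde is cut with DpnII and neighbouring DNA ends are joined inside the nucleus, so that sequencing counts which pairs of loci were in contact. The cells were adult primary neurons of mixed sex, sorted from the olfactory epithelium of 129P2/OlaHsd mice that carry a GFP reporter of Olfr17 (P2-GFP mice), with no treatment. The 2 biological replicates of 23000 and 20000 cells form the only group, and how many animals gave these cells is not stated in the labels. Boundaries had been called on the contacts of both replicates together, so each value below is 1 value with no spread between animals and no control group. How many contacts the matrix holds was not given in the sources used here, so its depth is unknown. No RNA was measured, so the identity of the cells could not be checked against marker genes.

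Contacts between the flanks of a domain boundary are rarer than those within either flank, and enhancers mostly contact promoters on their own side of it. At most of these loci, deletions, inversions and duplications that move or remove a boundary can let an enhancer reach a gene of the next domain. Malformed limbs or fingers can result. Many boundaries are held by CTCF, a zinc finger protein that stops the cohesin ring from extruding a DNA loop when its binding motif faces the approaching ring.

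The list held 7576 boundaries, each a bin of 5 kb with the authors' class, Strong (4045) or Weak (3531), and a score without a unit with a median of 0.545 and a highest value of 4.38. Each distance below runs from the transcription start site (TSS), the annotated 5′ end of the gene in GENCODE M21, to the midpoint of the bin, so it is known to within 2.5 kb. Left and right mean towards lower and higher coordinates on GRCm38, and the interval of a gene is the stretch between the nearest boundary on either side of its TSS.

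The sequences shown here are exact matches to the CTCF consensus in the reference genome near the boundaries flanking the 10 genes. Binding of CTCF to them was not measured, and their part in these boundaries was not tested. A core consensus of 12 bases and a strict one of 14 bases were searched on both strands within 10 kb of each midpoint; the strict consensus contains the core, so every strict match is also a core match. The lines below give every strict match and, where there was none, the core match nearest the midpoint. All are windows of 30 bases of the GRCm38 reference, written 5′ to 3′ on the strand of the match, with the consensus match in capitals.
Left of Shh, strict, chr5:28451363-28451392, plus strand: caacatggCCACCAGAGGGCGCtcggcctc
Right of Kcnj2, strict, chr11:111537834-111537863, plus strand: acatgttaCCAGCAGGTGGCAGtccagtag
Right of Kcnj2, strict, chr11:111532646-111532675, minus strand: ccatgtgaCCACTAGATGGCAGagtagtgt
Between Wnt6 and Ihh, strict, chr1:74895138-74895167, plus strand: agaggtggCCACTAGGGGGCGGggccagtc
Left of Wnt6, core, chr1:74763255-74763284, plus strand: tgccatttgCCAGGAGATGGCgctatggcg
Right of Ihh, core, chr1:75323543-75323572, plus strand: tcagacactCCAGAAGAGGGCgtcagatta
Right of Pax3, core, chr1:78486246-78486275, minus strand: ctgtggaggCCAGAAGAGGGCatcagatgg
Right of Lmbr1, core, chr5:29560840-29560869, plus strand: ccacagaggCCAGAAGAGGGCactggatcc
Right of Sox9, core, chr11:113172592-113172621, plus strand: acacacgcaCCACTAGGTGGCgacagagcc
Left of Pitx1, core, chr13:55771469-55771498, plus strand: tgccaggctCCAGGAGGTGGCctcttcagg
Right of Pitx1, core, chr13:55963439-55963468, minus strand: cagcagcggCCAACAGGTGGCaggagagct
Left of Myc, core, chr15:61818762-61818791, minus strand: tcagactcaCCAGAAGAGGGCatcaaattc
Right of Myc, core, chr15:63731618-63731647, minus strand: cccaaagggCCAGGAGAGGGCattagttcc
Of these windows, the one right of Pax3 lies within Farsb and the one left of Pitx1 within Pcbd2, and the others overlap no protein-coding gene.

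Shh encodes the secreted signal that patterns the limb from thumb to little finger, and its limb enhancer, the ZRS, sits far away in intron 5 of Lmbr1, a gene for a membrane protein. In these neurons the TSS of Shh (chromosome 5, 28456815 to 28467256, minus strand) and the whole of that intron lay in the same interval. It was bounded on the left by a Strong boundary (28455001 to 28460000) with a score of 2.01, higher than 96.3% of all boundaries. On the right it ended at a Strong boundary (29360001 to 29365000) with a score of 0.670, higher than 59.0% of all boundaries. The interval was 905 kb long and longer than those of 94.2% of protein-coding genes. Besides Shh it held the TSS of 1 protein-coding gene, Rnf32, a ring finger gene next to Lmbr1.

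The left border of this interval lay 9.76 kb downstream of the Shh TSS, inside the gene. Its midpoint was 0.685 kb from the 3′ end, and exon 3, the last of 3, lay wholly within the bin. A boundary midpoint within the gene body was found for 5.95% of protein-coding genes of 5 to 20 kb, the range that holds Shh with its 10.4 kb. The strict CTCF match printed for this boundary lay at -6.12 kb from the midpoint (minus meaning to the left), outside Shh and on the far side from the enhancer, and on the plus strand it points towards Shh.

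Lmbr1 (chromosome 5, 29229802 to 29378390, minus strand) was cut by the right border of the Shh interval. The bin lay over exons 2 and 3 of its 17 exons, with the midpoint in intron 2 and 15.9 kb downstream of the Lmbr1 TSS. Intron 5, from 29292950 to 29323801, began 826 kb and ended 857 kb from the Shh TSS, with 0 boundaries in between, and its end was 38.7 kb from the border. The intron that hosts the ZRS lay on the Shh side of the boundary and the promoter of its own gene on the other side. No core CTCF match lay within 10 kb of this border. The Lmbr1 TSS was instead in an interval of 205 kb with Nom1 and the motor neuron gene Mnx1, which ended at a Strong boundary of score 0.538 (29565001 to 29570000), 1.74 kb from the TSS of the ubiquitin ligase gene Ube3c.

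**Figure D1:**
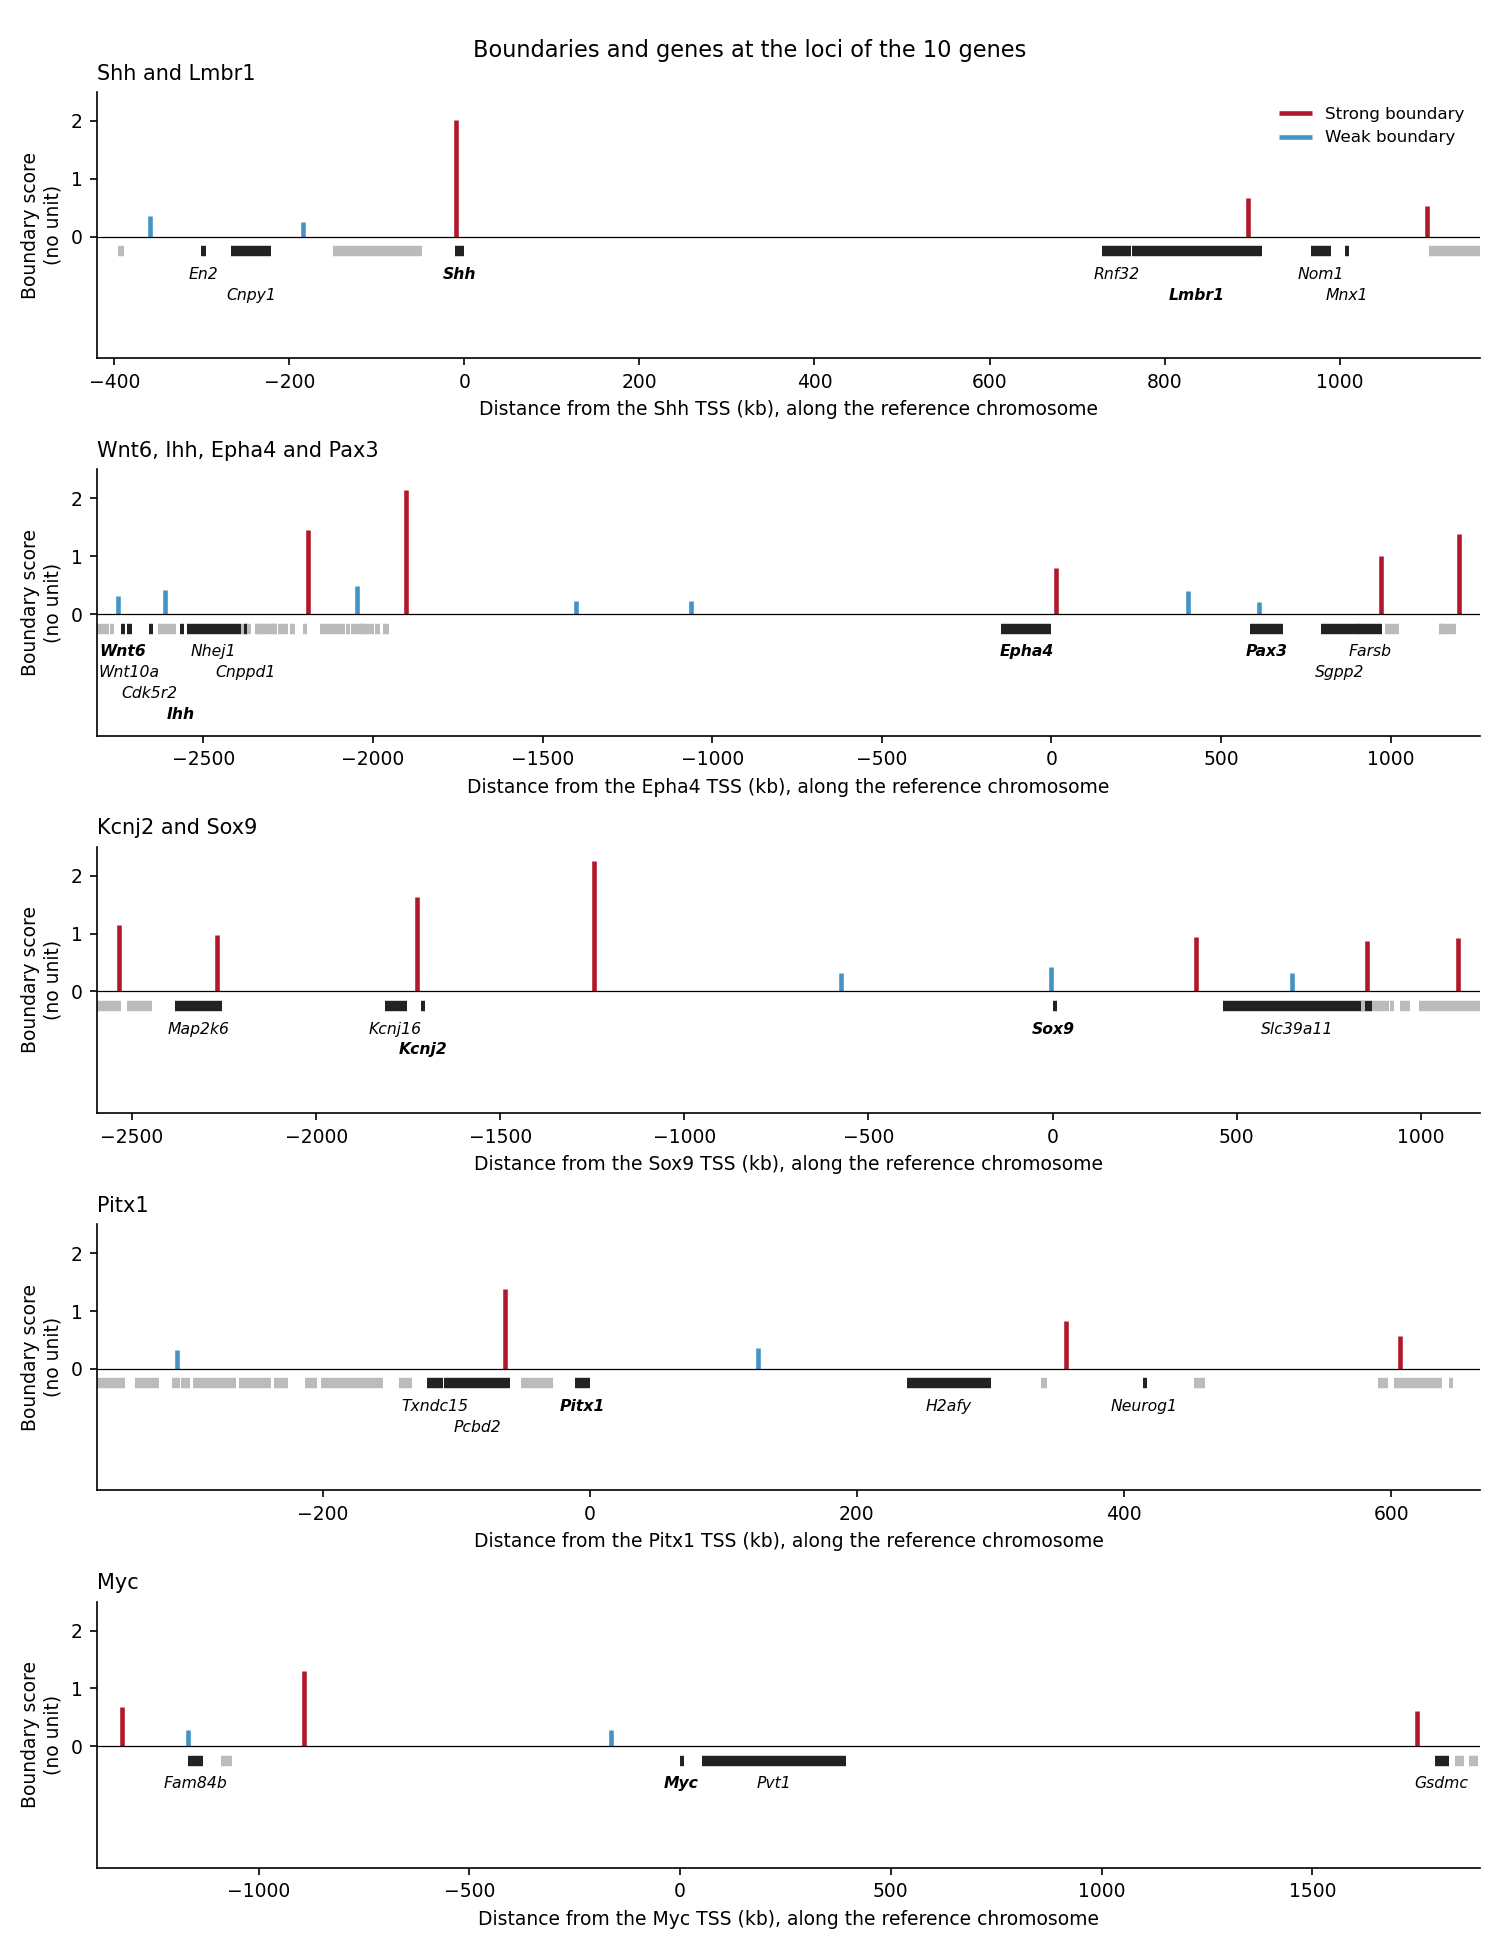
Boundaries (vertical lines, height the authors' score without a unit, red Strong and blue Weak) and protein-coding genes with Pvt1 (bars; black where named, bold for the 10 genes) against the distance in kb from the TSS of Shh, Epha4, Sox9, Pitx1 or Myc. Shh and most of Lmbr1 share a stretch of 905 kb that has no other boundary, between those of score 2.01 and 0.670. The score of 2.26 between Kcnj2 and Sox9 is the highest at the 5 loci.

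On the far side of Shh, En2 and Cnpy1 lie together in an interval of 175 kb. Each was separated from Shh by 2 boundaries, the Strong one of score 2.01 and a Weak one of score 0.259. At their distances from Shh, 85.1% and 74.8% of protein-coding pairs were separated. Of the 6 partners set beside Shh, 5 had at least 1 boundary between their TSS and that of Shh, Lmbr1 among them at 911 kb, a distance at which 97.4% of protein-coding pairs were separated. The exception was Rnf32, at a distance of 729 kb. A boundary lay between 96.7% of all pairs of protein-coding TSSs at that distance (within 20%), and between 92.1% of the 340 pairs that, like Shh and Rnf32, had no other protein-coding TSS between them. The pair belonged to the minority of pairs at its distance with 0 boundaries between them.

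Ihh, the hedgehog ligand of growing cartilage, and Wnt6, a Wnt ligand, lie near each other on chromosome 1 in gene-dense sequence. Their TSSs were 180 kb apart with 1 boundary between them, a Weak one (74900001 to 74905000) with a score of 0.408. A boundary separated 66.1% of protein-coding pairs at this distance. The boundary also separated Ihh from Wnt10a and Cdk5r2 and Wnt6 from Nhej1 and Cnppd1. At the distances of these pairs, in the same order, the shares were 60.7%, 39.1%, 88.8% and 89.7%.

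The Wnt6 TSS (74771892 to 74785322, plus strand) had a Weak boundary of score 0.310 at 9.39 kb upstream and the Weak one of score 0.408 at 131 kb downstream. Its interval of 140 kb was the shortest of the 10 and was the only one of theirs with a Weak boundary on both sides. It also held Wnt10a, another Wnt ligand that starts 19.6 kb away, Cdk5r2, Fev and Cryba2. The Ihh TSS (74945315 to 74951672, minus strand) lay 49.2 kb from the same boundary of score 0.408 and 371 kb from a Strong one of score 1.45 on its upstream side (75320001 to 75325000), 4.51 kb from the TSS of the peptidase gene Dnpep. Nhej1, the repair gene whose introns hold cartilage enhancers of Ihh, was in the Ihh interval of 420 kb with 16 further protein-coding TSSs. The distance of 174 kb between Ihh and Nhej1 held 0 boundaries, where 64.6% of pairs at that distance were separated. This interval contains 66000 undetermined bases of the reference, so its true length is uncertain.

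Between Ihh and Epha4 lay the highest score among the boundaries from Wnt6 to Pax3, a Strong boundary of 2.14 (75610001 to 75615000, higher than 97.3% of boundaries). The distance of 2563 kb between Ihh and Epha4 held 5 boundaries, and that of 2743 kb between Wnt6 and Epha4 held 6. At such distances 98.7% and 98.9% of protein-coding pairs had a boundary between them. Pax3 was separated from Ihh by 8 and from Wnt6 by 9 boundaries, where 99.4% and 99.5% of pairs had at least 1. A separation by itself is thus the rule for genes this far apart.

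Epha4 encodes an ephrin receptor with strong expression in the limb bud, and Pax3, a transcription factor of muscle precursors and neural crest, is the gene that takes up Epha4 enhancers when the border between them is lost. The nearest boundary of Epha4 (77367185 to 77515088, minus strand) was a Strong one just upstream of its TSS, at 12.4 kb on the side of Pax3 (77525001 to 77530000), with a score of 0.788. On the other side the interval of Epha4 reached 1063 kb to a Weak boundary of score 0.231 (76450001 to 76455000), which lay in a desert with the nearest protein-coding TSS, that of Slc4a3, 906 kb away. The interval was 1075 kb long, longer than those of 95.6% of protein-coding genes, and held no other protein-coding TSS. No core CTCF match lay within 10 kb of either border.

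From Epha4 to Pax3, 682 kb without another protein-coding TSS, there were 3 boundaries. The Strong one at 0.788 was followed by Weak ones of score 0.397 (77915001 to 77920000) and 0.209 (78125001 to 78130000). Both were below the median of 0.545. A boundary separated 96.4% of all protein-coding pairs at this distance and 91.4% of those with no TSS between.

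The last of these boundaries lay inside Pax3 (78101267 to 78197134, minus strand), in intron 5 of the principal transcript with 9 exons, 69.6 kb downstream of the TSS. Its score exceeded that of only 2.92% of boundaries. A boundary midpoint in the body was found for 32.9% of protein-coding genes of 75 to 300 kb, the range that holds Pax3 and Lmbr1. Upstream, Pax3 had a Strong boundary of score 1.01 at 290 kb (78485001 to 78490000), at the start of Farsb, a tRNA synthetase gene whose TSS was 1.40 kb away. Pax3 shared its interval of 360 kb with Sgpp2, an enzyme gene of sphingolipid metabolism, and 0 boundaries lay in the 113 kb between their TSSs. For pairs at that distance the share with a boundary was 45.2%.

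Sox9, the transcription factor that makes cartilage and, in the gonad, testis, and Kcnj2, the gene of an inward rectifier potassium channel, start 1716 kb apart on chromosome 11 with no protein-coding TSS between them. Duplications that include the border between them create a new domain in which Kcnj2 meets Sox9 enhancers and the fingertips are malformed. In these neurons 3 boundaries lay between them. Going from Kcnj2 to Sox9 these were a Strong one with a score of 2.26 (111535001 to 111540000), a Weak one of 0.319 (112205001 to 112210000) and a Weak one of 0.419 (112775001 to 112780000). The first was higher than 98.1% of all boundaries and was the highest at the flanks of the 10 genes. A boundary lay between 98.2% of all protein-coding pairs at such a distance and between 98.5% of the 133 neighbouring ones, so nearly all pairs this far apart were separated.

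The border of score 2.26 had 2 strict CTCF matches within 10 kb of its midpoint, 1 of them inside the bin. It was the only flanking border with more than 1 strict match within 10 kb. The minus-strand match lay at -4.84 kb from the midpoint and the plus-strand match at 0.348 kb to the right, so that both pointed outwards, one into the Kcnj2 interval and one into the Sox9 desert. A strict match lay within 10 kb of 13.8% of all boundaries and in 4.79% of windows of the same length across the genome. Of the strict matches at all boundaries, 64.7% pointed outwards in this way.

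Kcnj2 (111066164 to 111076821, plus strand) had a further Strong boundary of score 1.63 at 8.66 kb upstream (111055001 to 111060000). It separated Kcnj2 from Kcnj16, the neighbouring channel gene, whose TSS was 98.1 kb away; at that distance 39.5% of protein-coding pairs had a boundary between them. Map2k6, a kinase gene farther out at 667 kb, was separated from Kcnj2 by 2 Strong boundaries, where 96.2% of pairs had at least 1 boundary between them. Kcnj2 was alone in its interval of 480 kb. Its pair of flanking scores, 1.63 and 2.26, had the largest sum among the 10 genes.

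Sox9 (112782224 to 112787760, plus strand) had the nearest boundary of the 10 genes, at 4.72 kb upstream of its TSS, but this was a Weak one with a score of 0.419 and 0 core CTCF matches within 10 kb. Downstream, a Strong boundary of score 0.934 lay at 390 kb (113170001 to 113175000). The next listed gene on that side was the zinc transporter gene Slc39a11, with its TSS at 868 kb. Between the TSSs of Sox9 and Slc39a11 there were 3 boundaries, where 97.3% of pairs had at least 1. Only 1 of them lay between the bodies of these genes. The interval of Sox9 was therefore 395 kb long. Between Strong boundaries alone it was 1635 kb long, from the border of score 2.26 to that of score 0.934. It then held the part of the gene desert between the border of score 2.26 and Sox9, with the 2 Weak boundaries. With all boundaries nearly all of this part lay outside the interval of Sox9, and with Strong ones alone it lay inside. The rest of the desert, on the side of Kcnj2, lay in the Kcnj2 interval in both cases.

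Pitx1 encodes the transcription factor that gives the hindlimb its identity, and rearrangements that delete or move the side of H2afy, the gene of the histone variant macroH2A, can turn Pitx1 on in the arm. Pitx1 (chromosome 13, 55825051 to 55836192, minus strand) was 63.7 kb from a Strong boundary of score 1.38 on its downstream side (55770001 to 55775000). Upstream, a Weak boundary of score 0.364 lay at 126 kb (55960001 to 55965000). The interval of 190 kb held 1 other protein-coding TSS, that of Catsper3, a sperm ion channel gene.

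The Strong boundary lay in intron 2 of Pcbd2 and separated Pitx1 from Pcbd2 and Txndc15, while 43.7% and 48.0% of protein-coding pairs at their distances of 109 and 122 kb had a boundary between them. The Weak boundary was the only one in the 300.2 kb between Pitx1 and H2afy, a distance at which 85.0% of all pairs and 75.5% of neighbouring ones had a boundary. The neuronal determination gene Neurog1, 416 kb from Pitx1, was separated from it by this boundary and by a Strong one of score 0.834 (56190001 to 56195000). At that distance 91.6% of protein-coding pairs had a boundary between them. Both flanks of Pitx1 had 4 core CTCF matches and 0 strict ones.

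Myc, a transcription factor of cell growth whose enhancers are spread over a gene desert, had the longest interval of the 10 genes. It ran for 1910 kb from a Weak boundary of score 0.281 (61820001 to 61825000) to a Strong one of score 0.609 (63730001 to 63735000). It was longer than the intervals of 97.5% of protein-coding genes and than 99.6% of all intervals. The Myc TSS (chromosome 15, 61985391 to 61990374, plus strand) was 163 kb from the left border and 1747 kb from the right one. The interval held no other protein-coding TSS, but 21 annotated genes of any type started in it, Myc included. One of them was Pvt1, the long noncoding RNA gene 52.6 kb downstream of the Myc TSS, whose whole body (62037986 to 62378096) lay without a boundary. Among protein-coding pairs at that distance 21.8% were separated. The next protein-coding gene to the right, Gsdmc, was 1823 kb away and lay beyond the right border. Fam84b, 1132 kb to the left, lay beyond 2 boundaries, at a distance where 97.8% of protein-coding pairs were separated. Of the 122 neighbouring protein-coding pairs at the distance of Myc and Gsdmc, 99.2% had a boundary between them.

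Read together, 6 of the 10 TSSs lay within 25 kb of a boundary, those of Sox9, Kcnj2, Wnt6, Shh, Epha4 and Lmbr1, at 4.72 to 15.9 kb. Among all protein-coding TSSs the share was 23.9%. Within 10 kb there were 4 of the 10, against 11.5%, and within 50 kb 7 of the 10, against 43.2%. The median distance was 14.2 kb for the 10 genes and 59.2 kb for protein-coding genes. These genes are few and were chosen for their loci, and Ihh and Wnt6 and Shh and Lmbr1 share a boundary, so these are counts and not a test. With Strong boundaries alone, 4 of the 10 remained within 25 kb, against 15.8% of protein-coding TSSs, and Sox9 and Wnt6 were those that dropped out.

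The distances to the borders on either side were very unequal in 4 of the 6 genes with a border within 25 kb. Shh was 91.8 times as far from its upstream border as from its downstream one, and the ratio of the farther to the nearer distance was 85.6 for Epha4, 82.6 for Sox9 and 54.4 for Kcnj2. In the other 2 the farther border was not distant, and the ratio was 13.9 for Wnt6, whose interval was the shortest, and 11.9 for Lmbr1. A limit of 50, chosen after these values were seen, was passed by 4 of the 10 genes and by 6.96% of protein-coding genes, whose median ratio was 3.46. The ratio rises as the nearer border comes closer, so it partly repeats the nearness given above. Protein-coding genes equally near a boundary were not set beside these. The near border lay upstream of the TSS in Epha4, Sox9 and Kcnj2 and downstream in Shh. Over the 10 genes it was upstream in 5, and over all protein-coding genes in 51.9%, so there was no common side.

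**Figure D2:**
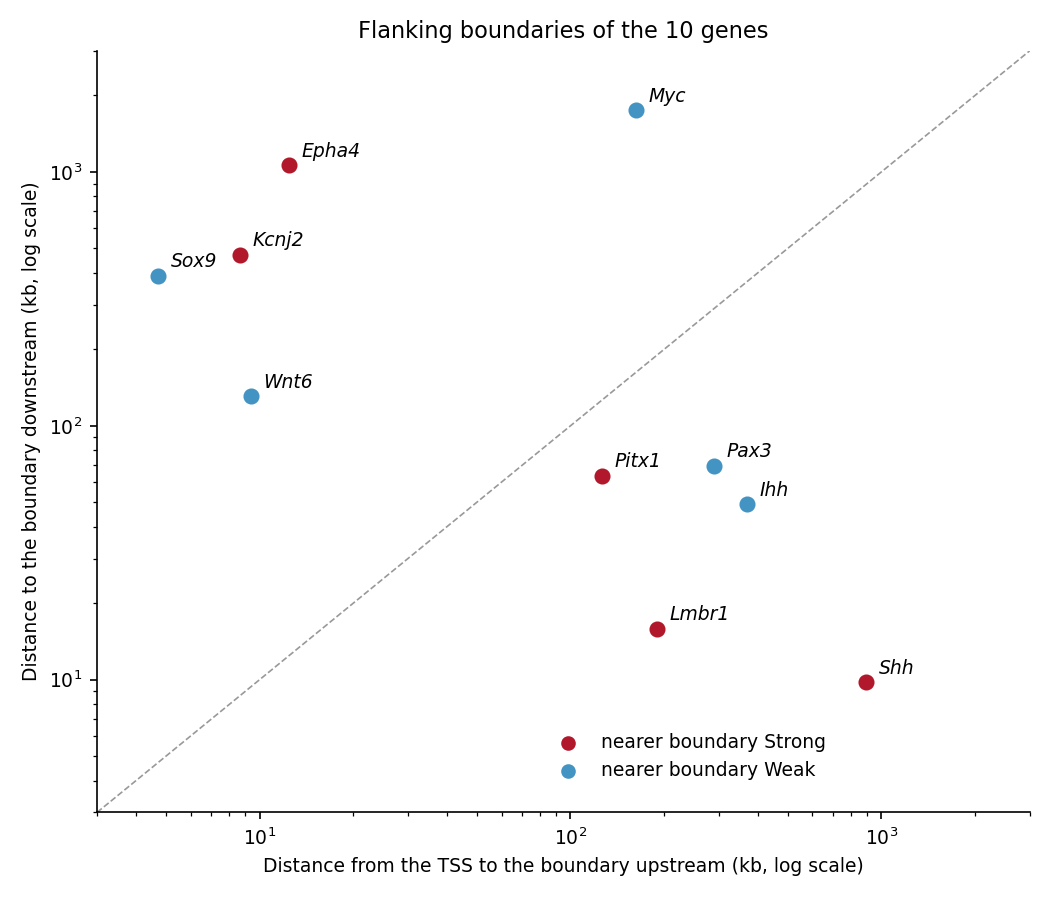
Distance from each TSS to the boundary upstream (x axis) and downstream (y axis), both in kb on log scales, with red points where the nearer boundary is Strong and blue ones where it is Weak. The dashed line marks equal distances, and the genes farthest from it are Shh at the lower right and Epha4 and Sox9 at the upper left.

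The intervals of the 10 genes had a median of 408 kb and ran from 140 to 1910 kb. Over protein-coding genes the median was 275 kb with quartiles of 195 and 401 kb, and over the 7556 intervals of the map it was 260 kb. Of the 10, 7 were above the median of genes. The intervals of Shh, Epha4 and Myc were at least 900 kb long, 3 of 10, against 5.81% of protein-coding genes and 3.57% of intervals. The limit of 900 kb was not set in the plan of results, and Shh, at 905 kb, passed it only narrowly. Epha4, Sox9, Kcnj2 and Myc had no other protein-coding TSS in their interval, 4 of 10, against 8.73%. Epha4 and Myc met both conditions.

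When Weak boundaries were left out, the intervals of Shh (905 kb), Lmbr1 (205 kb) and Kcnj2 (480 kb) kept their length, since both of their borders were Strong. Those of the other 7 grew, to 420 kb for Pitx1, 865 kb for Ihh and Wnt6, which then shared an interval, 960 kb for Pax3, 1635 kb for Sox9, 1915 kb for Epha4 and 2640 kb for Myc. The median over the 10 became 885 kb and that over protein-coding genes 480 kb. On this scale Kcnj2 and Pitx1 were in the middle of the distribution, with intervals longer than those of 49.9% and 43.1% of genes, and Shh stood at 76.2%.

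**Figure D3:**
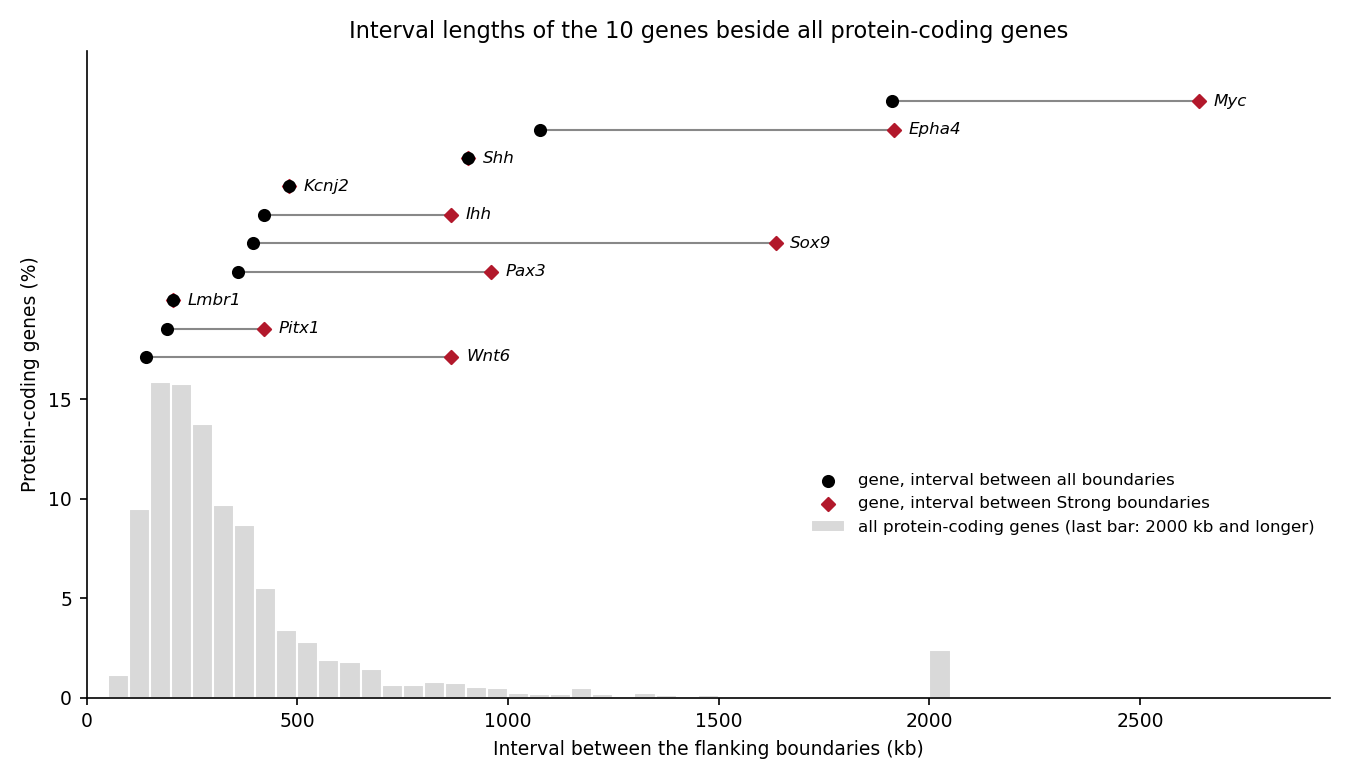
Interval length in kb between flanking boundaries: grey bars give the percent of protein-coding genes per 50 kb, and above them each of the 10 genes has a black point for all boundaries and a red diamond for Strong boundaries alone. The y axis applies to the bars only. Both marks coincide for Shh, Lmbr1 and Kcnj2, and the distance between them is greatest for Sox9, from 395 to 1635 kb.

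The 10 genes had 18 flanking boundaries between them, of which 11 were Strong (61.1%), beside 53.4% of all boundaries. Their median score was 0.640 and that of the whole list 0.545, and 10 of the 18 were above the latter. The scores ran from 0.209 within Pax3 to 2.26 between Kcnj2 and Sox9, while the highest score of the list was 4.38. Of the 10 genes, 3 had Strong boundaries on both sides, 6 had 1 of each class and Wnt6 had Weak ones on both sides. Shares of all protein-coding genes with these combinations are not given here, so these counts describe the 10 genes only.

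Of the 39 pairs that set these genes beside each other and beside their neighbours, 30 had a boundary between their TSSs and 24 had a Strong one. All 8 pairs among the 10 genes themselves were separated. Only Ihh and Wnt6 among them had no Strong boundary between them. The count of separated pairs is read against distance. The share of all protein-coding pairs with a boundary between them was 21.0% at 50 kb, 70.6% at 200 kb and 97.0% at 800 kb. These shares are for boundaries of either class. None is given here for Strong boundaries alone, so the count of 24 has no background beside it. Of the 9 pairs with no boundary, 8 were at most 191 kb apart, and the other was Shh and Rnf32. The pairs share genes and boundaries and are not independent of each other.

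**Figure D4:**
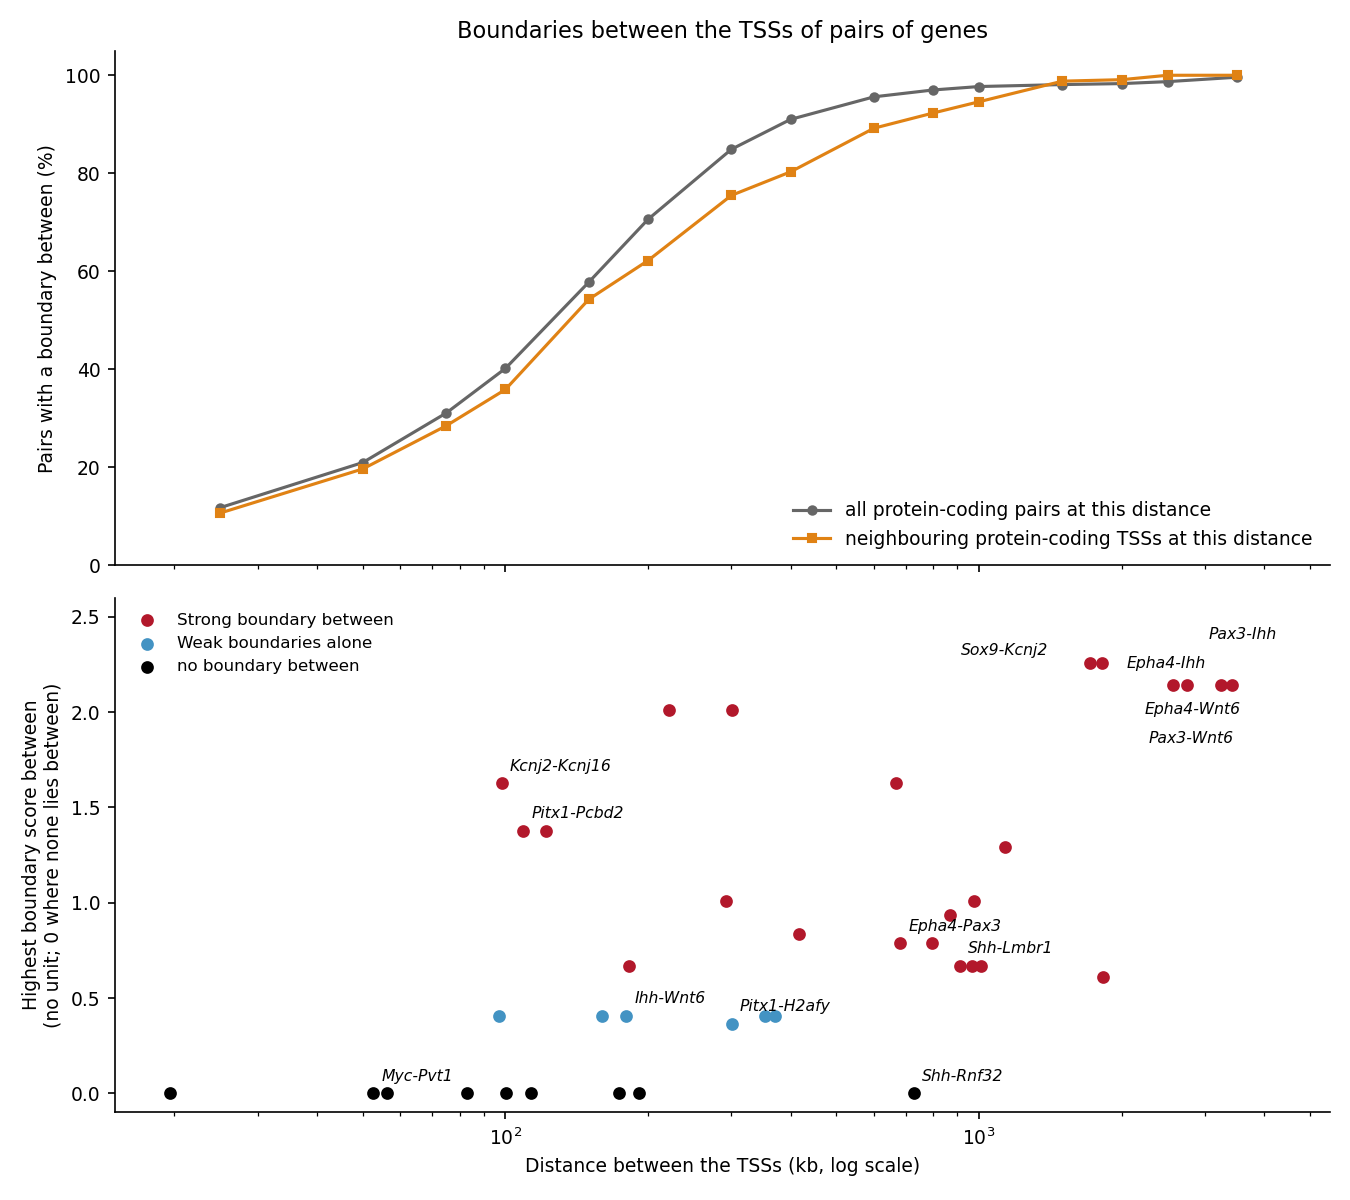
Upper panel: percent of protein-coding pairs with a boundary between their TSSs against the distance between the TSSs (kb, log scale), for all pairs (grey) and for neighbouring TSSs (orange). Lower panel: the 39 pairs of the 10 genes and their neighbours, with the highest boundary score between them (no unit, 0 where no boundary lies between). Shh and Rnf32, at 729 kb, are the only pair at 0 beyond 191 kb.

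A core CTCF match lay within 10 kb of 12 of the 18 flanking boundaries, beside 58.0% of all boundaries and 41.1% of windows of 20 kb across the genome. The 6 without one were both borders of Epha4, the border within Pax3, that within Lmbr1, the left one of Kcnj2 and the left one of Sox9. This says only that the exact letters are not in these windows. A strict match lay at 3 of the 18, those left of Shh, right of Kcnj2 and between Wnt6 and Ihh, beside 13.8% of all boundaries. The scores at these 3 were 2.01, 2.26 and 0.408.

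The matches at the 18 boundaries were 27 in number. Of these, 17 pointed from the midpoint into the domain on their own side, and over all boundaries 55.2% of core matches did. Of the 4 strict matches 2 did, both right of Kcnj2, beside 64.7% of the strict matches at all boundaries. Repeats marked in the reference covered 17 of the 27 core matches and 0 of the 4 strict ones, while across the genome they covered 70.4% of core and 10.3% of strict matches. The printed core windows right of Ihh, Pax3 and Lmbr1 and left of Myc carry the same 12 bases, CCAGAAGAGGGC, and all 4 lie in marked repeats. The strict matches at Shh, Kcnj2 and Wnt6 lie in sequence that is not marked as repeat.

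A wider list of 53 genes of limb patterning gave a background for the 10. It was made of the hedgehog pathway, BMP, FGF and Wnt signals and receptors, and transcription factors of the limb bud and of cartilage, and none of the 10 is in it. In 15 of the 53 (28.3%) the TSS was within 25 kb of a boundary, beside 23.9% of protein-coding genes, and their median distance was 53.8 kb, beside 59.2 kb. The list as a whole was thus close to other genes in distance. Its median interval was 345 kb, and 36 of the 53 intervals were above the median of 275 kb. No other protein-coding TSS lay in the interval for 21 (39.6%), beside 8.73%.

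The nearest to a boundary in this list were Hoxd13 at 0.810 kb, at one end of its cluster, Pthlh, a signal of the growth plate, at 3.32 kb, Hoxa13 at 3.38 kb, Gli1, a target of hedgehog signalling, at 9.47 kb, and Wnt3 at 11.7 kb. Among the farthest were Fgf10, the FGF that starts limb outgrowth, at 272 kb, Trp63 at 279 kb, Pth1r at 335 kb and Bmp4 at 337 kb. Intervals of at least 900 kb were found for 4 of the 53 genes (7.55%), beside 5.81% of protein-coding genes. Bmp4, Tbx3 and Fgf9 were among these 4. Other members of the Shh pathway had no common position: Smo, the transducer of the signal, was 17.0 kb from a boundary, Ptch1, the Shh receptor, 146 kb and Gli3, which represses targets where Shh is absent, 186 kb.

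**Figure D5:**
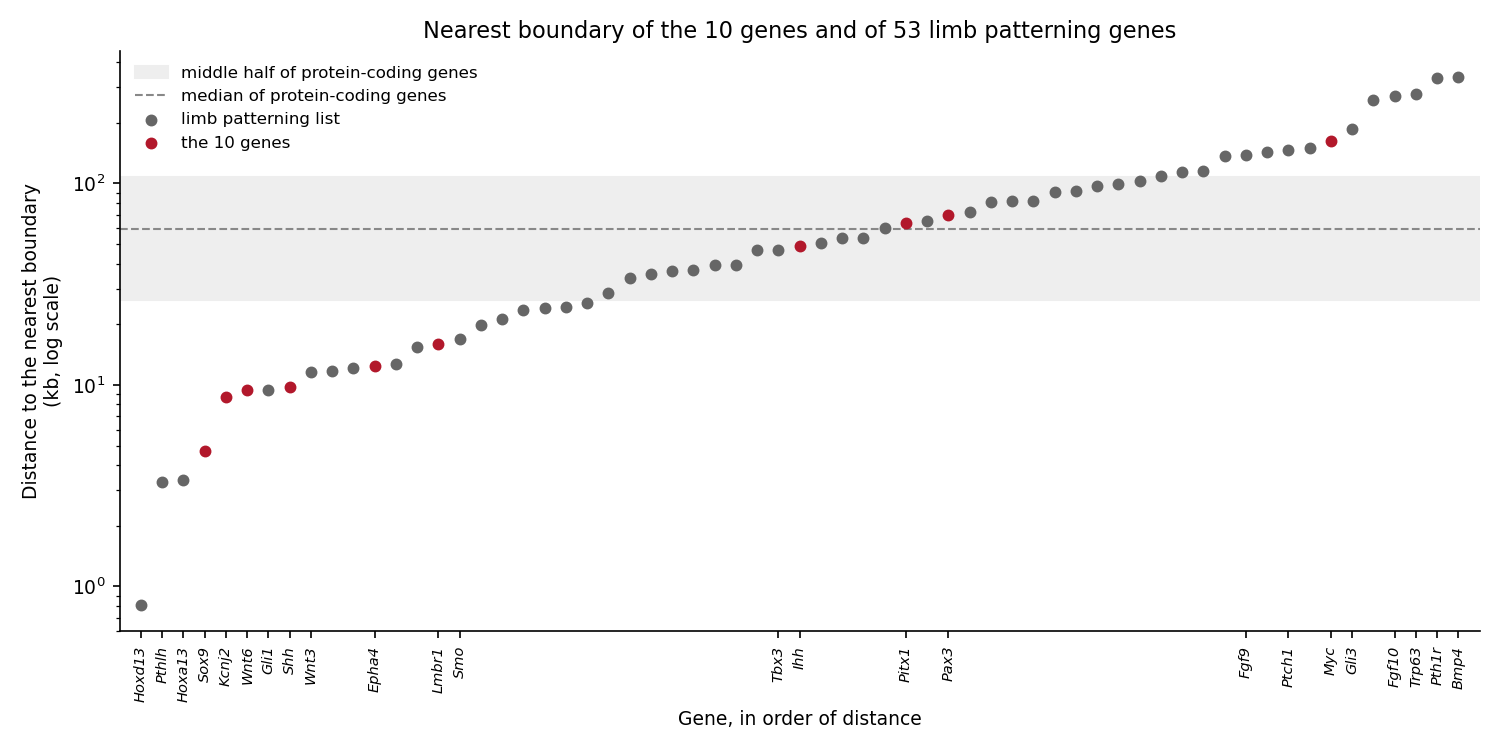
Distance from each TSS to the nearest boundary (kb, log scale) for 53 limb patterning genes (grey) and the 10 genes (red), in order of distance and labelled where the text names the gene, with the median (dashed, 59.2 kb) and the quartiles of protein-coding genes (band, 26.5 to 107 kb). Of the 10, 6 lie under the band and Myc, at 163 kb, lies above it.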

How the data were processed

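Per the labels' design text, the contacts of both replicates were pooled into a single matrix aligned to GRCm38, and the boundary calls come from that matrix. In the deposited file a row is a 5 kb bin with the authors' class and score. The score has no stated unit, and the classes meet between 0.4996 (the highest Weak) and 0.5002 (the lowest Strong). The boundary caller and its window were not given in the sources used here. Genes came from GENCODE M21 and sequence from the GRCm38.p6 reference of C57BL/6J, so structural differences of the 129P2/OlaHsd strain are not seen.

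Distances, intervals and boundaries between TSSs were computed with Python 3.11.15, numpy 2.4.6 and pandas 2.3.3, and the functions were tested on simulated positions. No statistical test was run, since there is 1 list. Shares over all protein-coding genes, pairs at the same distance (within 20%) or boundaries stand beside most counts. CTCF matches are exact matches to consensus letters, not measured binding. Named were the 10 genes, their listed neighbours, the nearest gene of each flanking boundary and the 5 nearest and 5 farthest of the limb list, of which 1 is not reported here; Smo, Ptch1, Gli3, Tbx3, Fgf9, Fev and the sequences at Lmbr1 and Wnt6 were added after their values were seen. The genes and lists were chosen with earlier results of these data known. The alternatives were Strong boundaries alone, boundaries scored at or above the median, other limits (10 and 50 kb), principal transcript starts, bin edges and gene body ends.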

Additional observations from a re-analysis of the deposited data

How the results depend on the processing

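The count of the 10 genes within 25 kb of a boundary (6) and of separated pairs (30) stayed within 1.5 times under each alternative run for them, from 4 to 7 and from 24 to 30. With Strong boundaries alone, and also with the boundaries scored at or above the median, the median interval rose from 408 to 885 kb, the median flanking score from 0.640 to 1.01, and the limb list had 7 genes within 25 kb in place of 15. When boundaries are left out, an interval or a nearest distance can only stay the same or grow, and those left out had the lower scores. The direction of these changes was thus largely set beforehand, and what sets their size was not tested. For the limb list, 4 of the 53 genes lay within 10 kb and 25 within 50 kb, beside 11.5% and 43.2% of protein-coding TSSs. Its 7 genes within 25 kb of a Strong boundary stand beside 15.8%. The list was thus below the share of protein-coding TSSs within 10 kb and with Strong boundaries alone. It was above that share within 25 and 50 kb of any boundary. Starts of principal transcripts changed the interval of none of the 10 genes. Strong boundaries alone lengthened 7 intervals and the upper scores 8, Lmbr1 being the additional one, at 700 kb. No paired analysis was possible because the 1 list was called on both replicates combined, and for the same reason no replicate could be left out. The unknown number of contacts limits which weak boundaries could be called.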

Other observations

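The sequence of the intervals differed among the 10 genes. Bases marked as repeats made up 19.6% of the Pitx1 interval and 36.7% of the Shh interval, beside 34.3% of the genome, and GC content ran from 39.5% around Kcnj2 to 49.3% around Wnt6, beside 41.8%. These are values of the reference and no relation to the boundaries was tested.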
